A study of Mus musculus with 24 samples.

Results

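Chromatin accessibility at long noncoding RNA (lncRNA) promoters was examined in germinal center (GC) B cells of mice that lost 1 allele of Crebbp, of Kmt2d or of both. Promoter peaks were the ATAC-seq peaks on chromosomes 1 to 19 whose edge lay within 1 kb of an annotated start of a lincRNA, antisense or processed_transcript gene and over 5 kb from every protein-coding start in GENCODE M21. This rule used position alone and took 1192 of 65483 consensus peaks, which belonged to 1166 of 8875 autosomal lncRNA genes. Of these genes 777 were typed lincRNA, 258 antisense and 131 processed_transcript, 1093 had 1 promoter peak, and no gene had over 4.

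All mice carried the Cg1Cre allele, a Cre driven from the Ighg1 (Cγ1) locus that recombines floxed alleles once B cells enter the GC reaction. The 17 mice were 4 WT (Cg1Cre+/-), 4 C (Cg1Cre+/-; Crebbp fl/+), 4 K (Cg1Cre+/-; Kmt2d fl/+) and 5 CK (Cg1Cre+/-; Crebbp fl/+; Kmt2d fl/+), so that the WT mice also expressed Cre. Splenic GC B cells were sorted 10 days after immunization with sheep red blood cells (SRBC) from animals 8 weeks old on a C57BL/6J background, with 1 library per mouse. The deletions were heterozygous and arose only in cells that had switched on Cre, and the share of recombined cells was not measured here.

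LncRNAs are transcripts that are not translated into protein. Many start from promoters of their own, some run antisense to a coding gene, and others carry microRNAs (miRNAs) or small nucleolar RNAs (snoRNAs) within their transcripts. ATAC-seq reads out where the Tn5 transposase can insert adapters into open DNA, and a peak at a start marks an accessible promoter without measuring how much RNA is made or from which strand. CREBBP is an acetyltransferase that adds H3K27ac at enhancers and promoters, and KMT2D is a methyltransferase that places H3K4me1 and H3K4me2, mainly at enhancers. Both genes are frequently mutated in follicular lymphoma, which arises from GC B cells.

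Promoter sequences of genes among the calls with the lowest adjusted p are shown first, since base composition is one of the features compared below. Each line below gives 300 bases of the RefSeq promoter on GRCm38 (mm10), from 250 bases before to 50 after the start, read 5′ to 3′ on the strand of the gene, with every CpG in capitals. The top 3 belong to genes whose promoter peak gained accessibility in CK GC B cells, and the last 2 to genes whose peak lost it. Of the 1166 genes, 509 had an entry in the RefSeq table.
Gm32351, chr13:94702839-94703138, minus strand, 22 CpG: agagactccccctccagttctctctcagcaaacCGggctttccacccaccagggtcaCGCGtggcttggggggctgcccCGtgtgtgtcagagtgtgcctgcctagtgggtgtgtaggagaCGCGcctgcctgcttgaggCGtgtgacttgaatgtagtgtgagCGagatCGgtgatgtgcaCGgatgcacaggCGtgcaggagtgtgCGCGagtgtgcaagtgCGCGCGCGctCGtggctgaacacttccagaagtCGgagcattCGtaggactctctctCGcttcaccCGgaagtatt
C130071C03Rik, chr13:83721131-83721430, plus strand, 12 CpG: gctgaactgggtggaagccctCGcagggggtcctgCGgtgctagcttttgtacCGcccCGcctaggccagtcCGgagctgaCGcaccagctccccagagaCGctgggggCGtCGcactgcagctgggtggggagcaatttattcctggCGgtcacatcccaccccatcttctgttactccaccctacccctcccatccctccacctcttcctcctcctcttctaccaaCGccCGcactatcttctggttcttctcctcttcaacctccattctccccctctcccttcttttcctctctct
Gm21814, chr6:149565832-149566131, plus strand, 7 CpG: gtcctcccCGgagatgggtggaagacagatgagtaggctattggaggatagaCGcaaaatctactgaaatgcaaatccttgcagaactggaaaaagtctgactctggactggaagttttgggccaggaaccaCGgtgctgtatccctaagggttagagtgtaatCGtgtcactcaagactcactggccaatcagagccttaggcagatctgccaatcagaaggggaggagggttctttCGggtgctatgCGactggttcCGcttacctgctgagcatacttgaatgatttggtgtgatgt
Gm39383, chr9:83007864-83008163, plus strand, 0 CpG: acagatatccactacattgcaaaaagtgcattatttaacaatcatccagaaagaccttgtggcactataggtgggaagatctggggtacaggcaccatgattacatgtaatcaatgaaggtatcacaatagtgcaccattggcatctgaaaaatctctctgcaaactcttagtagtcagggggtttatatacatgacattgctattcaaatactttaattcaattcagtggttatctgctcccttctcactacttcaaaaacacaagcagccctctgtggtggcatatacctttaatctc
Gm32312, chr16:27326592-27326891, minus strand, 0 CpG: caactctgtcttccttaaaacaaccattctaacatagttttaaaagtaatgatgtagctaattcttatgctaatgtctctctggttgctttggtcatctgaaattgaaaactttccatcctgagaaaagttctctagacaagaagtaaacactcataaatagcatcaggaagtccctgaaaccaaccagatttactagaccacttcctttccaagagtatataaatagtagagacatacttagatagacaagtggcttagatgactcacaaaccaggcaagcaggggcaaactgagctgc
The Gm32351, C130071C03Rik and Gm21814 windows held 22, 12 and 7 CpGs, and those of Gm39383 and Gm32312 held 0. They are examples, since the median number of CpGs in such a window was 9.5 over all gained, 5 over all lost and 6 over all lncRNA promoter peaks.

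Of the lncRNAs that carry miRNAs, C130071C03Rik holds Mir9-2, Mir17hg holds the miR-17 cluster and Mir155hg holds Mir155, which is needed for a normal GC response. Their mature miRNAs are given from RefSeq (GRCm38.p6) with the seed, bases 2 to 8, in capitals.
miR-9-5p of Mir9-2, chr13:83738821-83738843, plus strand: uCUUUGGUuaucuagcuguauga
miR-17-5p of Mir17, chr14:115043684-115043706, plus strand: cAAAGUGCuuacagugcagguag
miR-155-5p of Mir155, chr16:84714143-84714165, plus strand: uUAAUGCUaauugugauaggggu
The 3 seeds differed from one another. The results below concern accessibility at the host promoters, not the level of these miRNAs.

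Libraries held between 17483706 and 21857738 fragments in peaks, and every lncRNA promoter peak passed the filter of 10 fragments over all libraries. Promoters of 6 of 6 B cell markers and 7 of 7 GC B cell markers, Bcl6 among them, had peaks, whereas Cd3e, Cd3g, Cd4, Cd8a and Cd8b1 had none. Peaks also lay at promoters of 4 of 4 plasma cell, 3 of 6 myeloid and 2 of 4 erythroid markers. These summed to 274.2, 8.58 and 49.2 CPM in WT, so promoter peaks alone do not show the purity of the cells. The 2 of 7 T cell markers with a promoter peak, Cd3d and Cd5, summed to between 57.1 and 62.0 CPM (fragment counts scaled to a common library size) in WT mice, 42.9 and 54.1 in C mice, 46.6 and 60.5 in K mice, and 42.0 and 57.01 in CK mice. GC B cell marker promoters summed to between 437.7 and 491.2 CPM in WT mice, 404.8 and 450.6 in C mice, 435.9 and 454.1 in K mice, and 386.8 and 449.0 in CK mice. The part of these marker differences in the results below was not tested, and in bulk libraries fewer cells of a type and less signal per cell cannot be told apart. None of 5 Crebbp and 4 Kmt2d peaks was called in C, K or CK, so accessibility gave no check of the genotype. Male-specific Y fragments numbered between 1421 and 1742 in 9 of 17 libraries (2 WT, 2 C, 3 K and 2 CK) and 0 or 1 in the others, although the study's methods describe female mice.

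LncRNA promoter peaks lay between coding promoters and distal peaks in GC content, CpG ratio and level. Their median GC content was 49.5%, against 55.8% at 15737 protein-coding promoter peaks (within 1 kb of a coding start) and 46.3% at 32297 distal peaks (over 5 kb from every start). The ratio of observed to expected CpGs had a median of 0.301, 0.615 and 0.206 in the same order. Peaks with a GC content above 50% and a ratio above 0.6, called CpG-rich here, made up 121 of 1192 lncRNA promoters (10.2%), 7862 of the coding promoters (49.96%) and 1.03% of distal peaks. Per kb of peak, the median level was 6.23 CPM at lncRNA promoters, 18.6 at coding promoters and 3.68 at distal peaks. In 727 lncRNA promoter peaks an annotated start lay inside the peak, and in 465 it lay outside. The median distance to the nearest coding start was 27530 bp.

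The 6 lncRNA promoters with the highest level per kb held no called change, whereas among the 398 peaks in the highest tercile of level 38 were called in CK (9.55%, 16 gained and 22 lost), against 6.84% of all peaks. The highest per kb was the peak shared by Gm26917, Gm42418 and AY036118 (chr17:39843097-39848702), annotations known to overlap ribosomal RNA sequence, with group means between 7797 and 8969 CPM. This peak alone held 0.890% ± 0.104 of the fragments in WT (SD, n = 4) and 0.836% ± 0.156 in CK (n = 5). Without it, lncRNA promoters held 2.11% ± 0.0149 of the fragments for WT, 2.11% ± 0.0255 for C, 2.09% ± 0.0479 for K and 2.09% ± 0.0218 for CK, with overlapping mice in all groups. The next 5 were 1700113A16Rik, Gm15287, Gm6410, Gm32235 and Gm26887. Their log2 fold changes in CK against WT lay between -0.09 and 0.06, and none was called in C, K or CK.

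More lncRNA promoters were called in GC B cells with both deletions than in either single mutant. A peak was called when its adjusted p in edgeR's quasi-likelihood test was below 0.01 (Benjamini-Hochberg over 65483 peaks), and is then said to have gained or lost accessibility. In CK against WT, 60 lncRNA promoters gained and 45 lost accessibility (105 of 1192, 8.81%), at 107 genes, where 6.84% of all peaks were called (3.54% gained and 3.30% lost). In K against WT, 13 gained and 9 lost (22, 1.85%), against 1.48% of all peaks (0.647% gained and 0.828% lost). In C against WT, none gained and 2 lost, against 0.160% of all peaks, while 150 lncRNA promoters had an unadjusted p below 0.05 and DESeq2 called 7. The 3 comparisons share the WT mice. Among all 4 genotypes, 82 lncRNA promoters differed (6.88%), against 5.62% of all peaks. None was called in CK against K, where the lowest adjusted p was 0.159, 119 had an unadjusted p below 0.05, DESeq2 called none, and 0.00916% of all peaks were called, so no single promoter was shown to differ between CK and K. The count among all genotypes fell to 51 without WT mouse 3 or WT mouse 4, and that in CK against K rose to 1 without CK mouse 1.

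**Figure D1:**
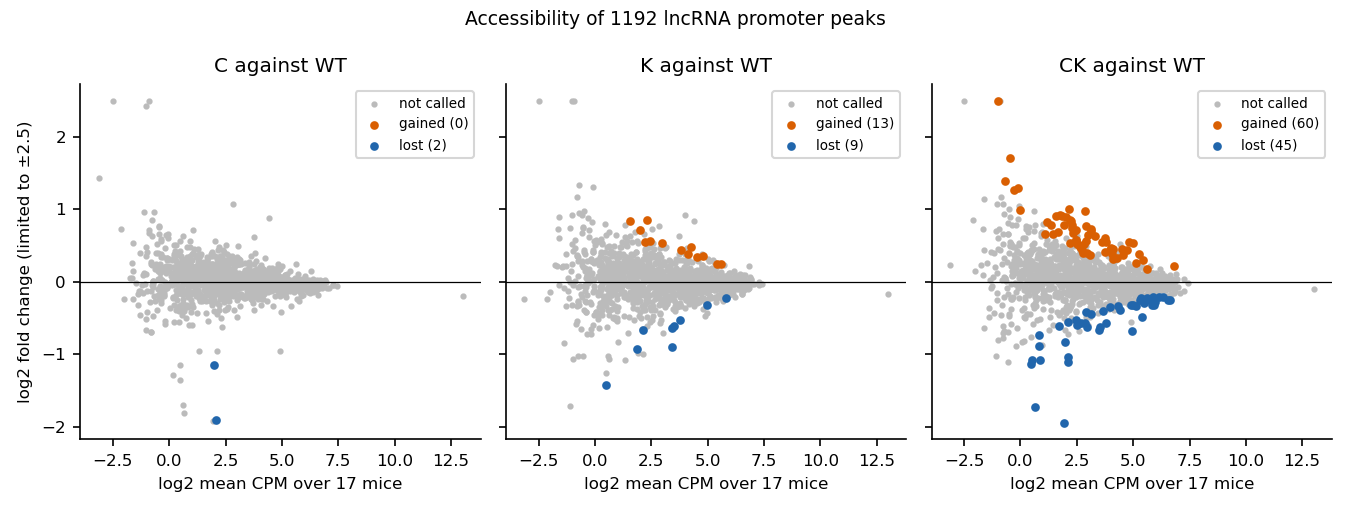
Log2 fold change against WT (y axis) by the log2 mean CPM over 17 mice (x axis) for lncRNA promoter peaks in C, K and CK, with called peaks in color. C has 2 called peaks, K has 22 and CK has 105, of which 60 lie above and 45 below 0. Values beyond the range of the y axis are drawn at its limit, among them the largest called gain in CK (6.02).

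The shift of lncRNA promoters as a class was small. Their median log2 fold change was 0.00 in C, 0.01 in K and 0.03 in CK, and that of all peaks 0.00 in each. Coding promoters had medians of -0.01, 0.06 and 0.06, and distal peaks of 0.01, -0.04 and -0.03. Among lncRNA promoters the CK median depended on level. It was 0.13 in the lowest tercile (66.5% of peaks above 0), 0.03 in the middle and -0.03 in the highest (40.95% above 0). Whether other peaks of the same level moved alike was not tested. The mean log2 CPM over the 1192 peaks was 2.82 ± 0.03 for WT (SD, n = 4), 2.83 ± 0.03 for C (n = 4), 2.84 ± 0.03 for K (n = 4) and 2.86 ± 0.03 for CK (n = 5), with overlapping mice. By direction, coding promoters in CK were mostly gained (1351 gained and 237 lost, 10.1% called), distal peaks mostly lost (554 and 1259, 5.61%), and lncRNA promoters were split (60 and 45). These shares describe the classes and were not tested against one another. All CK mice lay above all WT mice at 96 lncRNA promoters (8.05%) and below them at 93 (7.80%), against 6.59% and 6.39% of all peaks, and the groups did not overlap at 92 of the 105 called.

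**Figure D2:**
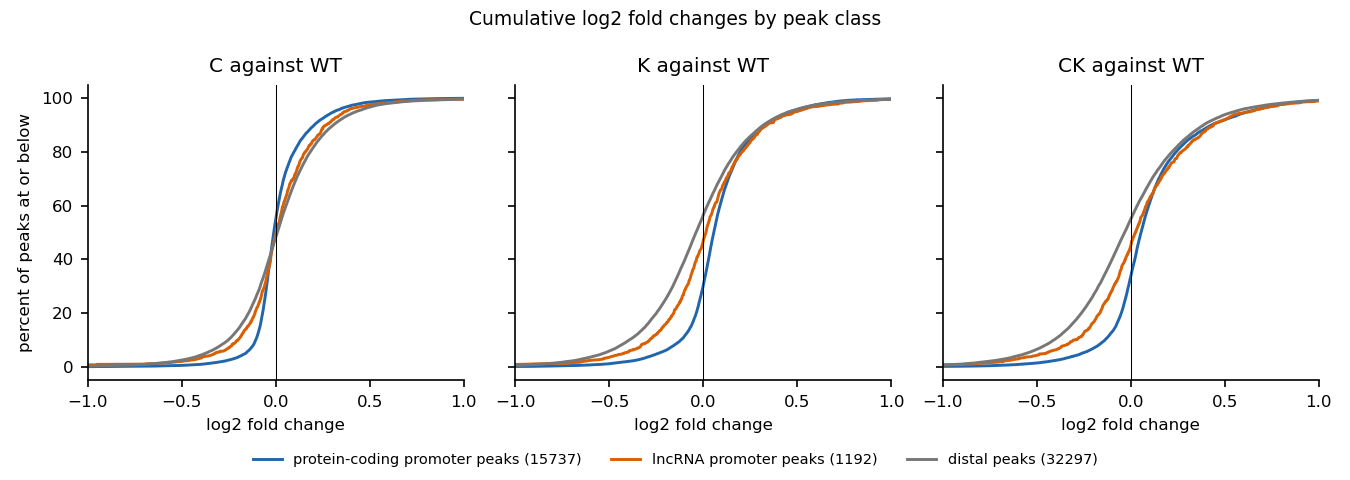
Cumulative percent of peaks (y axis) at or below each log2 fold change against WT (x axis), for protein-coding promoter, lncRNA promoter and distal peaks in C, K and CK. In K and CK the lncRNA curve crosses 0 between the other two, with medians of 0.01 in K and 0.03 in CK.

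The promoters that gained accessibility in CK had a median log2 fold change of 0.59 and those that lost it of -0.45, and 30 gained and 16 lost peaks passed a fold change of 1.5. The 60 gained peaks had median log2 fold changes of 0.24 in C and 0.38 in K, and the 45 lost peaks of -0.13 and -0.33, measured against the same WT mice that chose them. Mean log2 CPM over the gained peaks was 2.43 ± 0.08 for WT, 2.69 ± 0.04 for C, 2.89 ± 0.04 for K and 3.10 ± 0.05 for CK (SD over mice). Over the lost peaks it was 4.10 ± 0.08, 3.81 ± 0.11, 3.71 ± 0.11 and 3.54 ± 0.05. The counts depended on single WT mice, falling to 67 without WT mouse 2 and 56 without WT mouse 4. Over all peaks the CK calls also fell, from 4478 to 3395 and 2114 without the same mice.

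Gained and lost promoters differed in base composition. CpG-rich lncRNA promoters were called in CK in 24 of 121 cases (19.8%, 21 gained and 3 lost), and the others in 81 of 1071 (7.56%, 39 gained and 42 lost). Of all peaks 6.84% were called (3.54% gained and 3.30% lost). Coding promoters, of which 49.96% were CpG-rich, also had more gained than lost peaks (1351 and 237). Whether a link to base composition is particular to lncRNA promoters was not tested. The median GC content was 53.9% at gained and 47.0% at lost peaks, and the median CpG ratio 0.494 and 0.198. From the lowest to the highest quintile of GC content, gained peaks numbered 2, 6, 8, 16 and 28 and lost peaks 15, 13, 6, 6 and 5. The median log2 fold change of the quintiles ran from -0.05 in the lowest to 0.10 in the highest. Counts were also centered within 20 bins of peak GC content, which gave 51 gained and 42 lost, with 84 peaks called both ways. Under that centering the lowest quintile held 2 gained and 8 lost and the highest 21 and 11, with medians of 0.03 and 0.02. Gained peaks thus rose in number along GC content with and without centering. The fall in lost peaks along GC content was not kept under centering, where they numbered 8, 10, 6, 7 and 11, and the medians of the end quintiles came together.

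**Figure D3:**
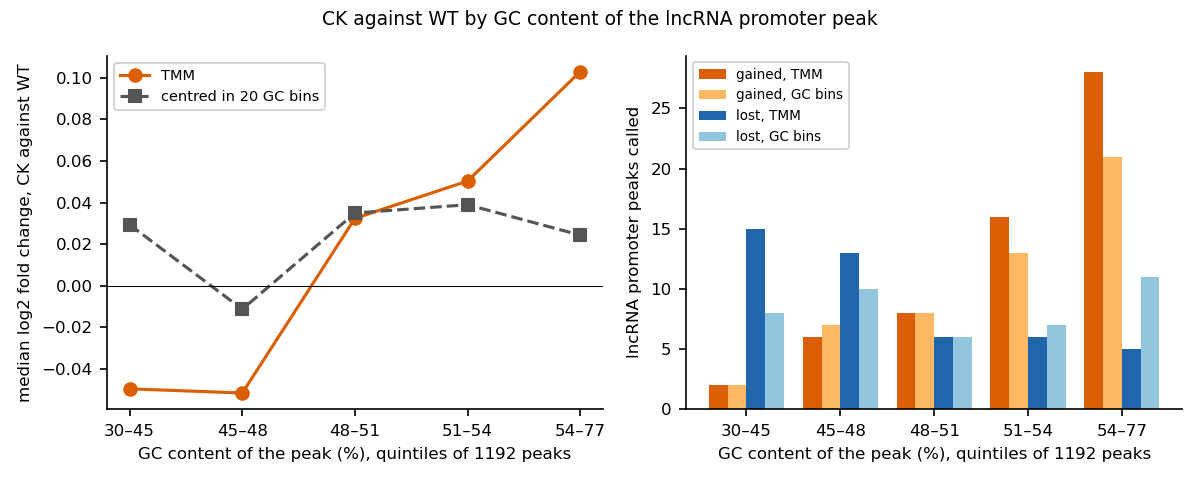
Median log2 fold change in CK against WT (left) and number of called lncRNA promoter peaks (right) by quintile of peak GC content, from lowest to highest, with TMM normalization alone and after centering in 20 GC bins. Gained peaks rise from 2 to 28 along the quintiles without centering and from 2 to 21 with it.

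In CK against WT, gene type, position of the start and distance to coding genes separated the calls less. In CK, 42 gained and 32 lost among 785 lincRNA peaks (9.43% called), and 10 and 9 among 268 antisense peaks (7.09%). Among 139 processed_transcript peaks 8 gained and 4 lost (8.63%), against 6.84% of all peaks called (3.54% gained and 3.30% lost). Where the start lay inside the peak 41 gained and 25 lost of 727 (9.08%), and where it lay outside 19 and 20 of 465 (8.39%). Within 20 kb of a coding start 25 gained and 15 lost of 469 (8.53%). From there to 100 kb the counts were 27 and 24 of 567 (8.995%), and beyond it 8 and 6 of 156 (8.97%). At the edge of the rule, 35 peaks in the last 100 bp inside the limit for the lncRNA start held 2 gained and no lost peak with a median log2 fold change of 0.03, and 36 peaks in the next 100 bp outside it held 1 gained and 3 lost with a median of 0.11. For the distance to coding starts, 46 peaks in the first 1000 bp inside the limit held 2 gained and 2 lost (median 0.04), and 51 in the last 1000 bp outside it held 2 and 3 (median 0.06). The sets at the edges are too small to read against the shares over all peaks. In K against WT, 20 of 785 lincRNA peaks were called (2.55%), 1 of 268 antisense peaks (0.373%) and 1 of 139 processed_transcript peaks (0.719%). Of all peaks 1.48% were called there. The same types held 15, 1 and 4 calls in CK against C (1.91%, 0.373% and 2.88%), against 1.68% of all peaks. These shares were not tested against one another.

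Short motifs were counted on both strands of the 300 bases around the start nearest to each peak. That start lay inside the peak at 68.3% of gained and 55.6% of lost peaks. At the others, part or all of the window lay outside the peak that was measured. The SP/KLF motif GGGCGG occurred at 46.7% of gained, 17.8% of lost and 21.6% of all lncRNA promoter peaks, against 17.1% of all lncRNA starts and 43.7% of all coding starts. The E-box CAGGTG occurred at 13.3% of gained and 35.6% of lost peaks, against 23.2% of all lncRNA promoter peaks, 23.4% of lncRNA starts and 20.7% of coding starts. For the CCAAT box (CCAAT) the shares were 28.3%, 46.7%, 34.6%, 35.9% and 38.6% in the same order. The PU.1 motif GAGGAAGT occurred at 2 of 60 gained (3.33%) and 6 of 45 lost peaks (13.3%), against 5.12% of all lncRNA promoter peaks, 3.13% of lncRNA starts and 3.26% of coding starts. The shorter GGAAGT, which GAGGAAGT contains, occurred at 21.7% of gained, 26.7% of lost and 27.2% of all lncRNA promoter peaks, against 22.05% of lncRNA starts and 24.9% of coding starts, and the ETS motif CCGGAAG at 6.67%, 8.89%, 6.46%, 4.63% and 11.03%. TATAAA occurred at 6.67%, 15.6%, 14.1%, 14.1% and 12.7%, and each of the other 5 motifs at no more than 2 gained and 2 lost peaks. In all 12 motifs were counted, GGGCGG itself contains a CpG, and a match is a run of letters rather than evidence of binding.

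The lncRNA with the lowest adjusted p among gained promoters was Mir124a-1hg, host of Mir124a-1, which is best known from neurons. Its peak (chr14:64586113-64588372) covered the start, 58893 bp from the nearest coding start, that of the kinesin gene Kif13b. Mir124a-1hg measured 3.35, 3.55, 3.09 and 3.05 CPM in the WT mice, 4.72, 4.92, 4.55 and 3.93 in C mice, 4.404, 5.55, 4.61 and 4.47 in K mice and 5.81, 6.08, 5.44, 5.78 and 6.17 in CK mice. All C, K and CK mice lay above all WT mice, and the CK mice also above all C mice. The log2 fold change in CK was 0.84 ± 0.11 (SE, adjusted p = 2.71e-05), and in K 0.54 ± 0.12 (adjusted p = 0.00867). In C it was 0.48 ± 0.12 and was not called (adjusted p = 0.0853). The second promoter peak of the gene (chr14:64589701-64590988) was low, at 1.15 ± 0.333 CPM in WT and 1.899 ± 0.343 in CK (SD), and missed the threshold (log2 fold change 0.70 ± 0.22, adjusted p = 0.0276).

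C130071C03Rik, also known as Linc00461, is the host of Mir9-2 and lies 68026 bp from the start of Mef2c, a transcription factor gene needed for B cell proliferation. All 3 of its promoter peaks gained accessibility in CK. The peak over its first start (chr13:83720914-83722505), whose promoter sequence is shown above, measured 2.82, 2.87, 2.67 and 2.33 CPM in the WT mice, 4.15, 4.42, 3.99 and 3.19 in C mice, 3.82, 5.38, 4.19 and 4.29 in K mice and 5.02, 5.76, 4.83, 4.58 and 4.72 in CK mice. Every mutant mouse was above every WT mouse there. The log2 fold change was 0.90 ± 0.13 in CK (adjusted p = 7.29e-05), 0.72 ± 0.14 in K (0.00364) and 0.56 ± 0.14 in C (0.0864, not called). At chr13:83729469-83731594, a start shared with Gm26803, CK differed from WT by 0.60 ± 0.09 (adjusted p = 9.89e-05), and at chr13:83737644-83740142, which contains the miR-9-5p sequence above, by 0.54 ± 0.09 (0.000391). Neither of these was called in C or K. The K call at the first start was lost without WT mouse 3, WT mouse 4 or K mouse 2.

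**Figure D4:**
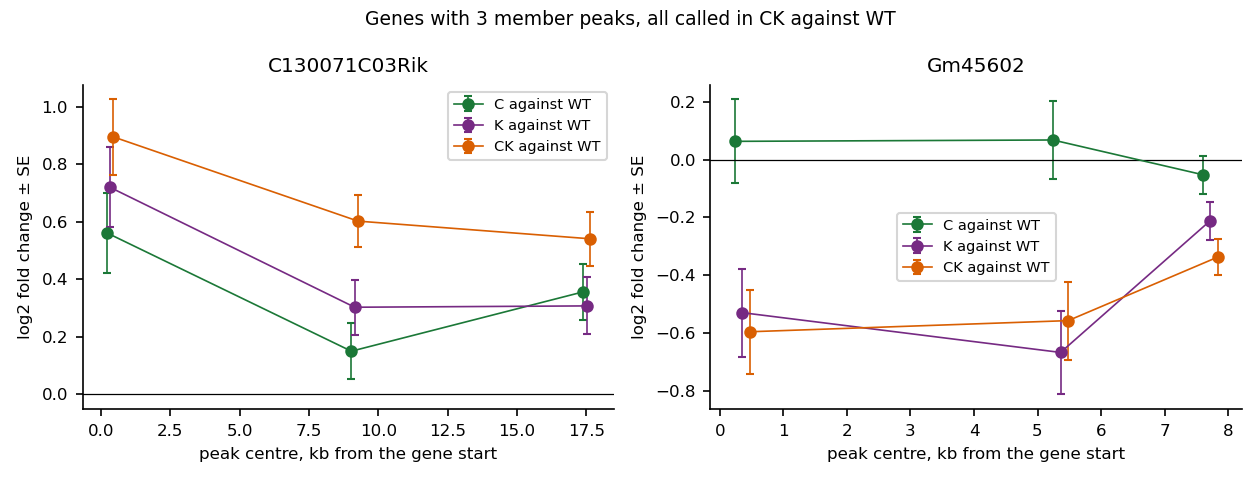
Log2 fold change ± SE against WT in C, K and CK (y axis) at the 3 promoter peaks each of C130071C03Rik and Gm45602, by the distance of the peak center from the gene start (kb, x axis). All 3 C130071C03Rik peaks lie above 0 in each genotype, and all 3 Gm45602 peaks lie below 0 in K and CK.

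Of the next gained promoters Gm43177, Gm32351, Gm30684 and Gm48623 were CpG-rich, and Gm21814 was not. Gm43177 (chr5:52113621-52116760, 41043 bp from the helicase gene Dhx15) measured 29.0, 28.1, 23.8 and 24.03 CPM in the WT mice, 33.1, 30.9, 29.1 and 28.6 in C mice, 36.03, 30.8, 32.97 and 30.2 in K mice and 39.9, 40.5, 37.5, 36.4 and 34.6 in CK mice. Its CK mice were above all WT and all C mice, with a log2 fold change of 0.53 ± 0.07 against WT (adjusted p = 3.17e-05) and 0.31 ± 0.07 against C (0.00897). Gm21814 (chr6:149565633-149566669, 19751 bp from the dynein adaptor gene Bicd1) measured 22.1, 21.2, 23.2 and 23.8 CPM in the WT mice, 25.01, 23.4, 29.2 and 29.2 in C mice, 29.3, 28.5, 28.0 and 29.8 in K mice and 29.4, 33.1, 36.9, 30.03 and 35.4 in CK mice. K and CK mice were above all WT mice, and 1 C mouse lay within the WT range. The log2 fold change in CK was 0.54 ± 0.07 (adjusted p = 3.80e-05), and in K 0.35 ± 0.08 (0.00934). Gm32351 (chr13:94702123-94703490, 85420 bp from the tubulin chaperone gene Tbca), with the most CpGs of the promoters shown above, measured 2.93, 3.24, 3.23 and 2.38 CPM in the WT mice, 4.81, 4.42, 3.59 and 3.13 in C mice, 5.36, 4.53, 4.66 and 4.199 in K mice and 6.75, 6.84, 5.63, 5.73 and 4.78 in CK mice. The CK and K mice lay above all WT mice, and C overlapped both, with a CK log2 fold change of 1.01 ± 0.14 (adjusted p = 4.99e-05).

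Gm30684 (chr7:38060969-38061940, 37418 bp from the prefoldin-like gene Uri1) measured 19.9, 19.7, 18.2 and 18.4 CPM in the WT mice, 22.5, 21.6, 20.6 and 21.1 in C mice, 26.7, 25.2, 23.3 and 21.3 in K mice and 27.2, 27.03, 25.4, 25.4 and 25.1 in CK mice. Its C, K and CK mice each lay above all WT mice, and CK also above C, with a log2 fold change of 0.45 ± 0.07 in CK (adjusted p = 7.40e-05). Gm48623 (chr13:54302458-54303931, 67418 bp from the complexin gene Cplx2) measured 5.75, 7.05, 6.23 and 7.37 CPM in the WT mice, 7.32, 8.84, 8.95 and 7.33 in C mice, 9.98, 9.798, 9.05 and 8.07 in K mice and 9.75, 10.1, 11.2, 11.01 and 12.4 in CK mice. CK and K mice were above WT without overlap, and the CK log2 fold change was 0.72 ± 0.11 (adjusted p = 8.26e-05). CT025659.1 (chr17:65906319-65908368, 18041 bp from Twsg1, which encodes a BMP-binding protein) measured 11.6, 9.87, 10.6 and 11.2 CPM in the WT mice, 13.8, 14.2, 14.7 and 14.1 in C mice, 15.2, 15.1, 15.02 and 13.1 in K mice and 17.7, 16.4, 13.8, 15.2 and 16.02 in CK mice. All mutants lay above WT and the 3 mutant groups overlapped one another, with log2 fold changes of 0.39 ± 0.09 for C (adjusted p = 0.0390, not called), 0.43 ± 0.09 for K (0.00482) and 0.55 ± 0.08 for CK (9.32e-05). Its K call was lost without any 1 of WT mice 2 to 4 or K mice 1 to 3.

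AC091309.4 had the lowest adjusted p among lost promoters and was also lower than in C. Its peak (chr17:83918096-83919077) lay 159 bp from a start and 70133 bp from Haao, an enzyme gene of the kynurenine pathway. AC091309.4 measured 5.53, 5.22, 6.37 and 7.03 CPM in the WT mice, 4.86, 3.97, 4.65 and 6.21 in C mice, 3.396, 3.91, 4.61 and 3.51 in K mice and 3.15, 3.02, 2.84, 2.89 and 2.07 in CK mice. CK mice were below all mice of each other genotype, and K mice below all WT mice. The log2 fold change was -1.10 ± 0.14 against WT (adjusted p = 2.41e-05) and -0.80 ± 0.15 against C (0.00224, lost without C mouse 4). In CK against K it was -0.46 ± 0.15 and was not called (0.422). The Haao promoter also lost accessibility in CK, by 0.27 on the log2 scale (adjusted p = 0.000741).

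Gm28100 (chr1:85986878-85989371, 25871 bp from the lipid receptor gene Gpr55) measured 49.6, 46.4, 51.6 and 54.9 CPM in the WT mice, 42.3, 36.2, 39.3 and 42.96 in C mice, 40.97, 37.3, 41.7 and 45.9 in K mice and 35.2, 36.4, 33.3, 33.2 and 42.3 in CK mice. Every mutant mouse was below every WT mouse, with a log2 fold change of -0.49 ± 0.07 in CK (adjusted p = 5.63e-05), and the peak lies in a 5 Mb window with 9 of the peaks called in C. Gm39383 (chr9:83007985-83012031, 32469 bp from Phip), whose promoter without CpG is shown above, measured 32.99, 38.9, 42.3 and 47.8 CPM in the WT mice, 26.01, 24.99, 31.9 and 38.1 in C mice, 26.5, 31.8, 29.4 and 32.7 in K mice and 24.96, 26.2, 23.9, 23.3 and 28.5 in CK mice. K and CK mice were below all WT mice, and the CK log2 fold change was -0.68 ± 0.10 (adjusted p = 0.000117). The Phip promoter moved the other way, by 0.31 (adjusted p = 0.00407). Gm31410 (chr9:116218808-116220474, 43448 bp from Tgfbr2, a receptor for the TGF-beta family) measured 71.8, 65.3, 67.9 and 71.6 CPM in the WT mice, 59.2, 59.6, 62.4 and 63.1 in C mice, 56.3, 58.7, 62.6 and 65.01 in K mice and 59.1, 51.04, 55.1, 54.3 and 56.98 in CK mice. All mutants lay below WT, and CK below C as well, with a CK log2 fold change of -0.32 ± 0.05 (adjusted p = 0.000125).

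Gm32312 (chr16:27326347-27326902, 18858 bp from Ostn), an antisense gene whose promoter without CpG is also shown above, measured 2.66, 2.51, 3.09 and 2.33 CPM in the WT mice, 1.65, 1.399, 2.38 and 1.59 in C mice, 1.65, 1.59, 1.78 and 2.35 in K mice and 1.28, 1.24, 1.28, 1.05 and 1.44 in CK mice. CK mice were below all WT and all K mice, and both single mutants overlapped WT. The CK log2 fold change was -1.08 ± 0.18 (adjusted p = 0.000218). Gm16534 (chr2:32061764-32066144, 10072 bp from the nucleoporin gene Nup214) measured 67.3, 67.4, 65.4 and 74.4 CPM in the WT mice, 65.6, 64.9, 61.7 and 63.5 in C mice, 65.8, 61.2, 65.4 and 62.01 in K mice and 56.3, 60.8, 56.8, 56.1 and 52.5 in CK mice. CK mice were below every other mouse, with a log2 fold change of -0.28 ± 0.05 against WT (adjusted p = 0.000291), while C and K overlapped WT. Gm11672 (chr11:106124642-106127262, 23950 bp from the kinase gene Map3k3) measured 12.9, 13.99, 14.6 and 14.4 CPM in the WT mice, 14.1, 12.7, 11.3 and 14.8 in C mice, 10.2, 11.2, 10.6 and 10.4 in K mice and 8.03, 8.13, 8.95, 8.37 and 12.1 in CK mice. Apart from CK mouse 5, the CK mice were below all others, with log2 fold changes of -0.62 ± 0.11 against WT (adjusted p = 0.000317) and -0.54 ± 0.11 against C (0.00386). Gm11342 (chr13:24337823-24339108, 10403 bp from Cmah, which encodes a sialic acid hydroxylase) measured 15.1, 17.2, 16.8 and 18.6 CPM in the WT mice, 13.1, 13.99, 17.6 and 16.1 in C mice, 10.9, 11.4, 12.5 and 12.1 in K mice and 9.60, 13.5, 11.4, 12 and 10.6 in CK mice. K and CK mice overlapped each other and lay below all WT mice, with log2 fold changes of -0.53 ± 0.10 in K (adjusted p = 0.004196) and -0.57 ± 0.10 in CK (0.000414). The K call there was lost without any 1 of WT mice 2 to 4 or K mice 1 and 2, whereas none of the 16 CK calls named so far was lost under any alternative fit or without any mouse.

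**Figure D5:**
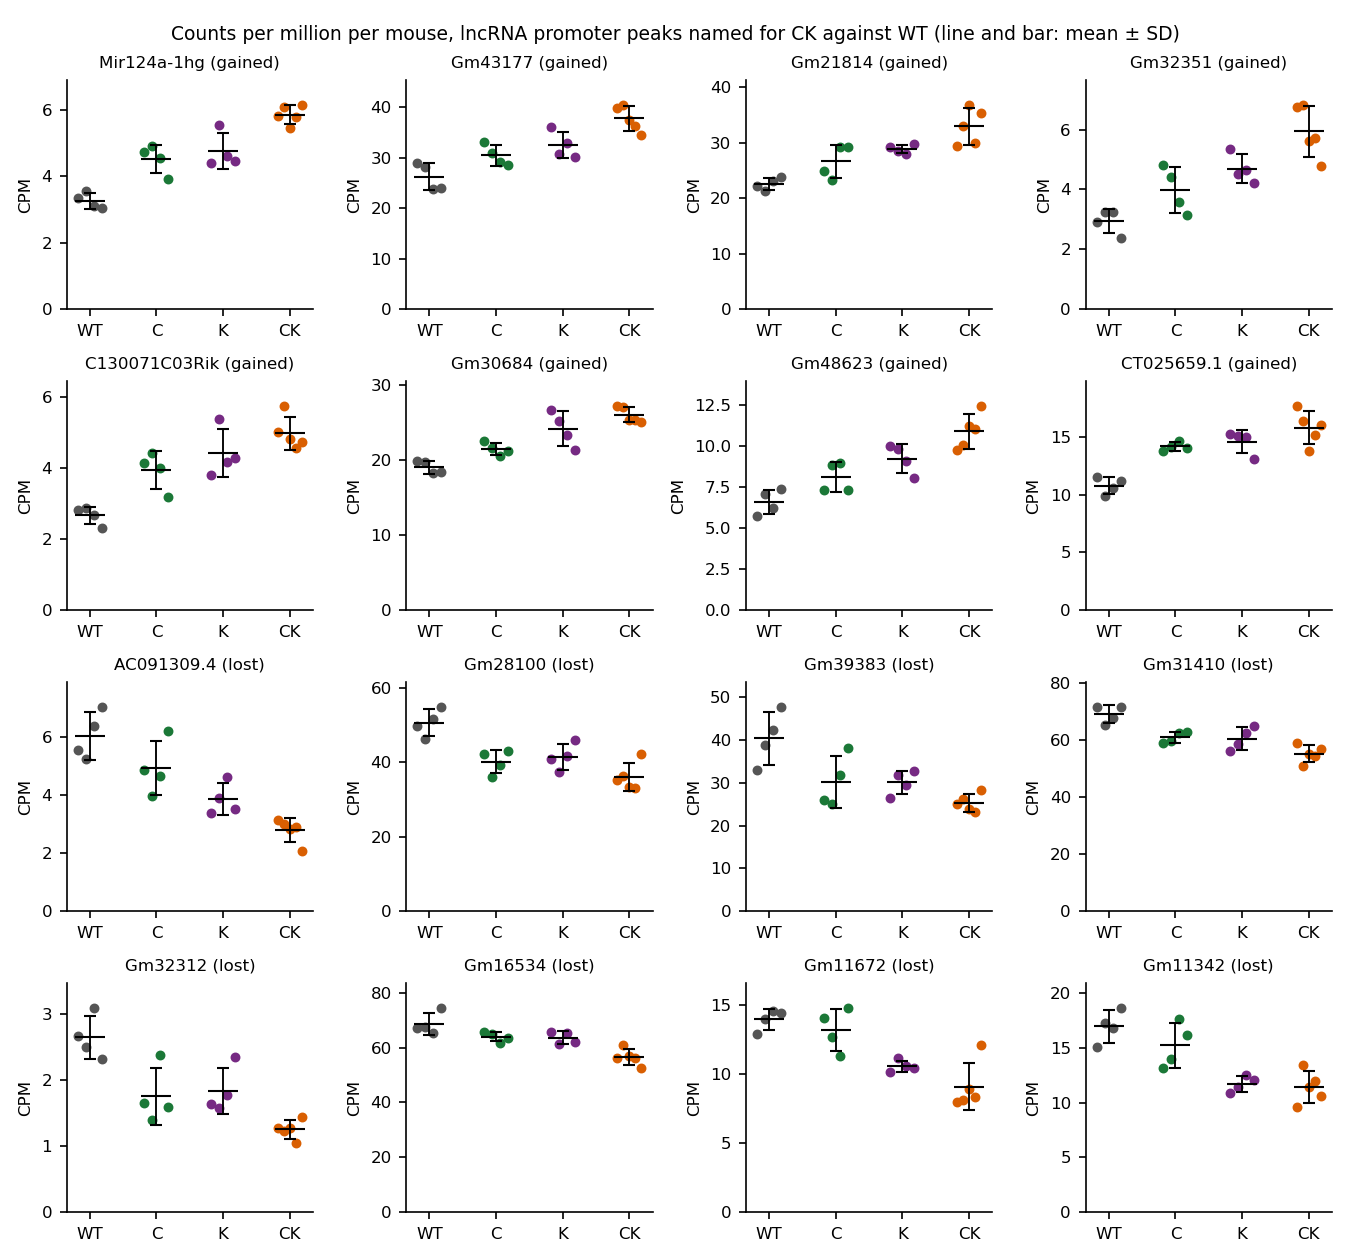
CPM per mouse (y axis, from 0) at the 8 gained and 8 lost lncRNA promoter peaks with the lowest adjusted p in CK against WT. Dots are mice and the line and bar the mean ± SD, and at all 16 peaks the CK mice do not overlap the WT mice.

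Deletion of 1 Kmt2d allele alone changed 22 lncRNA promoters. The K and WT mice did not overlap at any of the 22, nor at 174 of the 1192 lncRNA promoters in all (14.6%), against 11.3% of all peaks. The called peaks had a median log2 fold change of 0.48 at gained and -0.64 at lost peaks. The largest gain was at Gm38399 (chr1:135687102-135688703, 31358 bp from Csrp1), which measured 3.03, 3.81, 2.999 and 3.65 CPM in the WT mice, 3.73, 4.29, 4.701 and 4.62 in C mice, 7.32, 5.83, 5.02 and 6.04 in K mice and 5.51, 6.84, 5.82, 5.23 and 5.53 in CK mice. K mice were above all WT and C mice and overlapped CK, with log2 fold changes of 0.85 ± 0.13 in K (adjusted p = 0.000848) and 0.78 ± 0.13 in CK (0.000252). AC123853.1 (chr19:44314233-44315373, 17719 bp from Scd4, a stearoyl-CoA desaturase gene) measured 14.2, 15.7, 16.5 and 16.4 CPM in the WT mice, 20.7, 19.4, 19.1 and 19.6 in C mice, 22.2, 19.9, 21.7 and 23.5 in K mice and 22.4, 18.4, 18.9, 19.7 and 18.7 in CK mice. All mutants were above WT, with a log2 fold change of 0.48 ± 0.08 in K (adjusted p = 0.0009904) and 0.32 ± 0.07 in CK (0.00413). Centering in GC bins gave 13 calls, 6 gained and 7 lost, in place of 13 gained and 9 lost. The count was 8, 6 and 3 without WT mouse 2, 3 and 4, and 4, 9 and 12 without K mouse 1, 2 and 4. Over all peaks the K calls fell too, from 966 to 578, 349 and 254 without those WT mice. Without those K mice they numbered 216, 630 and 662.

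Among promoters lost in K, A630023P12Rik (chr5:110514669-110515237, 29118 bp from Galnt9) measured 2.23, 1.67, 2.06 and 2.82 CPM in the WT mice, 2.17, 1.53, 1.31 and 2.02 in C mice, 0.6899, 0.8495, 0.6804 and 1.01 in K mice and 0.739, 1.13, 1.42, 0.847 and 1.04 in CK mice. K mice were below all WT and C mice, with a log2 fold change of -1.42 ± 0.23 (adjusted p = 0.00118), against -1.08 ± 0.21 in CK (0.00114). A730082K24Rik (chr7:114950492-114951570, 156524 bp from Insc) measured 13.4, 13, 10.9 and 14.2 CPM in the WT mice, 11.2, 11.1, 15.4 and 14.1 in C mice, 7.27, 8.15, 8.58 and 8.997 in K mice and 9.60, 9.64, 11.1, 7.47 and 9.68 in CK mice. K mice were below all WT and C mice, the CK mice reached into the WT range, and the log2 fold change in K was -0.64 ± 0.12 against WT (adjusted p = 0.00389) and -0.65 ± 0.12 against C (0.00513). AC102342.2 (chr18:15194561-15196313, 43115 bp from Kctd1) measured 5.69, 3.92, 4.08 and 4.32 CPM in the WT mice, 4.201, 4.11, 3.44 and 5.79 in C mice, 1.698, 3.17, 2.56 and 2.08 in K mice and 3.25, 3.82, 3.79, 3.49 and 2.77 in CK mice. K mice were below all WT mice at -0.93 ± 0.18 (adjusted p = 0.00425), whereas CK at -0.39 ± 0.16 was not called (0.1097) and CK against K at 0.54 ± 0.18 was not called either (0.425). Each of the last 2 calls in K was lost without at least 4 of the mice in turn.

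Deletion of 1 Crebbp allele alone left 2 lncRNA promoters called, both lost. D630024D03Rik (chr11:31824505-31826048, 46163 bp from Cpeb4, a regulator of mRNA polyadenylation) measured 5.75, 5.27, 5.25 and 5.43 CPM in the WT mice, 2.31, 2.26, 1.87 and 3.398 in C mice, 5.09, 4.81, 3.19 and 6.88 in K mice and 3.003, 2.91, 2.51, 3.34 and 3.52 in CK mice. C and CK mice were below all WT mice, and the K mice were spread over both the C and the WT range, with log2 fold changes of -1.15 ± 0.18 in C (adjusted p = 0.00192) and -0.83 ± 0.17 in CK (0.00164). In K against C it was higher by 1.03 ± 0.19 (0.00369). This peak and Gm12107 (lost in CK) share a 5 Mb window of chromosome 11 with 17 of the 105 peaks called in C, and the 6 windows with 5 or more such peaks held 17 lncRNA promoters.

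5830416I19Rik (chr5:64044862-64045597, 47353 bp from the phosphoglucomutase gene Pgm2) measured 6.92, 4.86, 6.56 and 5.04 CPM in the WT mice, 1.56, 1.805, 1.26 and 1.59 in C mice, 7.96, 4.13, 6.18 and 6.598 in K mice and 2.02, 1.94, 1.85, 6.33 and 5.704 in CK mice. The C mice lay below all other mice, while CK mice 1 to 3 stood just above the C mice and CK mice 4 and 5 within the WT range. The log2 fold change was -1.90 ± 0.32 in C (adjusted p = 0.00344), -0.73 ± 0.27 in CK (0.0689, not called) and 1.995 ± 0.32 in K against C (0.00129). Same-numbered C and WT mice deviated together, and with the replicate number as a block 12 lncRNA promoters were called in C, 2 gained and 10 lost, including both of these. Total counts and loess offsets each gave 1 gained and 2 lost. The C count was 0 without WT mouse 1, C mouse 1 or C mouse 2, 1 without WT mouse 3, C mouse 3 or C mouse 4, and 4 to 6 without K mouse 1, 2 or 4 or CK mouse 1, 4 or 5. The log2 fold change in C stayed between -1.33 and -1.04 at D630024D03Rik and between -1.98 and -1.82 at 5830416I19Rik whichever mouse was left out.

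The comparisons between mutants asked which promoters moved when the second gene was also deleted. In CK against C, 9 lncRNA promoters gained and 11 lost (20, 1.68%), with 1.68% of all peaks called (0.907% gained and 0.770% lost), and in K against C 2 gained and 5 lost (7), with 0.788% of all peaks called. For CK against the summed changes of the single mutants, which would be 0 if both deletions added up on the log2 scale, none of 1192 was called, against 0.0107% of all peaks. There 60 had an unadjusted p below 0.05, the lowest adjusted p was 0.141, DESeq2 called 1, and edgeR called 1 without CK mouse 1. GC bins changed CK against C to 2 gained and 5 lost, and loess offsets changed K against C to 2 gained and 2 lost. The 20 calls in CK against C fell to 10, 12, 6 and 3 without C mouse 1, 2, 3 and 4, and to 8 and 10 without CK mouse 1 and 4, and the 7 in K against C fell to 3, 3, 3 and 2 without C mouse 1, 2, 3 and 4 and to 1 without K mouse 1 or 4.

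At the 5 further promoters named for CK against C, both the K and the CK mice lay apart from all WT and C mice. Gm4349 (chr3:95427096-95428730, 5658 bp from Arnt, a partner of the hypoxia-inducible factors) measured 3.405, 4.39, 4.92 and 3.93 CPM in the WT mice, 4.91, 4.33, 3.79 and 4.73 in C mice, 6.21, 6.23, 6.28 and 5.91 in K mice and 6.79, 7.38, 6.96, 6.62 and 6.34 in CK mice. C and WT overlapped and CK was above all other mice, with log2 fold changes of 0.62 ± 0.11 against C (adjusted p = 0.00184) and 0.71 ± 0.11 against WT (0.000154). Gm49735 (chr16:43708391-43710492, 43534 bp from Drd3) measured 42.04, 39.1, 36.04 and 38.04 CPM in the WT mice, 39.7, 38.6, 38.7 and 39.9 in C mice, 48.8, 45.99, 43.9 and 45.8 in K mice and 46.97, 52.1, 45.9, 46.8 and 47.1 in CK mice. K and CK mice lay above all WT and C mice, at 0.28 ± 0.05 in CK against C (adjusted p = 0.00189). Gm10010 (chr6:128200121-128201540, 56527 bp from the tetraspanin gene Tspan9) measured 33.4, 30.8, 32.4 and 30.4 CPM in the WT mice, 29.03, 30.6, 29.9 and 31.2 in C mice, 35.7, 33.8, 36.01 and 34.2 in K mice and 36.4, 34.2, 36.2, 37.5 and 35.1 in CK mice. Its change was 0.25 ± 0.05 against C (adjusted p = 0.00386), a call lost after centering in GC bins and without any C mouse, and was not called against WT (0.0156).

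Of the promoters lower in CK than in C, Gm32250 (chr1:194994645-194995879, 55650 bp from the progenitor marker gene Cd34) measured 7.24, 7.26, 8.15 and 7.199 CPM in the WT mice, 7.69, 8.53, 6.52 and 7.96 in C mice, 6.26, 5.72, 5.18 and 5.54 in K mice and 4.48, 5.33, 4.59, 5.03 and 5.88 in CK mice. K and CK mice were below all WT and C mice, with a log2 fold change of -0.61 ± 0.11 in CK against C (adjusted p = 0.001699). Gm31897 (chr7:127287648-127290743, 5517 bp from Itgal, the alpha chain of the integrin LFA-1) measured 37.1, 32.4, 34.9 and 35.9 CPM in the WT mice, 34.2, 36.6, 32.6 and 36.7 in C mice, 28.8, 28.9, 27.7 and 27.4 in K mice and 26.5, 27.6, 31.4, 28.5 and 26.2 in CK mice. It was lower than in C by 0.32 ± 0.06 in CK (adjusted p = 0.00245) and by 0.31 ± 0.06 in K (0.00722), again with K and CK apart from WT and C. The CK call was lost without C mouse 4, and the K call without any 1 of 7 mice.

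Gm45602 lost accessibility at each of its 3 promoter peaks in CK. The middle one (chr8:79496387-79496623) measured 5.80, 6.005, 4.55 and 4.71 CPM in the WT mice, 6.14, 4.56, 5.92 and 5.47 in C mice, 2.81, 3.57, 3.35 and 3.51 in K mice and 2.71, 4.20, 3.31, 3.69 and 4.03 in CK mice. K and CK mice were below all WT and C mice, with log2 fold changes of -0.67 ± 0.14 in K against WT (adjusted p = 0.008301), -0.56 ± 0.14 in CK against WT (0.00654) and -0.73 ± 0.14 in K against C (0.00598). At chr8:79490947-79492043 the CK change was -0.59 ± 0.14 (0.00656), and at chr8:79498261-79499459, the highest of the 3, -0.34 ± 0.06 (0.000772). The nearest coding gene is Smad1, a transducer of BMP signals, 91429 to 98743 bp away. Its promoter gained accessibility in CK, with a log2 fold change of 0.61 (adjusted p = 0.000125).

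The neighboring coding promoters as a rule did not pass the test with the lncRNA promoter. Of the 105 peaks called in CK, 55 had a peak at the nearest coding start. Of the 24 gained with such a neighbor, 4 had a gained neighbor and none a lost one. Of the 31 lost, 1 had a lost neighbor and 4 a gained one, of which 3 had the same Smad1 promoter. In CK 8.585% of coding promoter peaks gained and 1.51% lost, and 6.84% of all peaks were called. The gained pairs were 2810433D01Rik with the Wnt receptor gene Fzd2 (neighbor log2 fold change 0.48, adjusted p = 0.00272), Gm17173 with the prostaglandin E2 receptor gene Ptger2 (0.31, 0.00242), Gm11378 with Foxf2 (0.72, 6.27e-05) and Gm36283 with Pawr (0.27, 0.00168). The opposite pairs were Gm39383 with Phip and the 3 Gm45602 peaks with Smad1. These neighbors were picked out after their values were seen.

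A few further peaks are given for the coding gene nearest to them. They were picked after their values were seen, and how many other lncRNA promoters lie near such genes was not counted. Gm49503, 7189 bp from the BAFF receptor gene Tnfrsf13c, fell from 63.5 ± 3.34 CPM in WT (SD, n = 4) to 50.7 ± 4.71 in CK (n = 5), with a log2 fold change of -0.33 ± 0.06 (adjusted p = 0.0009804). 2210414B05Rik, 20813 bp from the kinase gene Lyn, went from 49.03 ± 3.002 to 40.1 ± 1.45 CPM (-0.29 ± 0.06, adjusted p = 0.00345). The shared start of 2310001H17Rik and Gm47861, 36796 bp from the activation marker gene Cd69, went from 108 ± 9.34 to 90.99 ± 9.16 CPM (-0.25 ± 0.06, adjusted p = 0.00732). The coding promoters of Tnfrsf13c, Lyn and Cd69 themselves were not called in CK (log2 fold changes -0.07, 0.04 and -0.13). In the other direction, Gm12160, 248480 bp from the B cell factor gene Ebf1, rose from 5.84 ± 0.834 to 8.41 ± 0.828 CPM (0.53 ± 0.12, adjusted p = 0.00515).

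On chromosome 12, 4 called peaks stood within a stretch of a few Mb, among them the 2 largest losses. 1700030C10Rik (chr12:20815160-20816241) went from 6.97, 4.39, 9.98 and 9.47 CPM in the WT mice to 1.53, 1.83, 1.42, 2.34 and 2.94 in CK, the largest loss of all (-1.95 ± 0.34, adjusted p = 0.000453), and 2410018L13Rik and the start shared by Gm48693 and Gm49700 fell with it. Gm40864 (chr12:22623229-22623521) had 0.0532, 0, 0 and 0 CPM in WT, at or near no fragments, and 0, 0.915, 1.23, 2.69 and 1.38 in CK. The 3 lost peaks also had negative values in C (-1.92, -1.81 and -0.95), none of them called. These peaks, with GC contents between 68.2% and 76.8%, were picked after their values were seen, and whether their fragments come from near-identical copies was not tested.

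Lists of known lncRNAs were read by their counts and medians beside the medians of all peaks (0.00 in each genotype), since the members were chosen with results known. Hosts of snoRNAs release them from their introns. Of 22 listed genes 8 had 1 promoter peak each, and edgeR and DESeq2 called none in C, K or CK, with none at an unadjusted p below 0.05, where 6.84%, 1.48% and 0.160% of all peaks were called in CK, K and C, and 8 peaks are too few to read against those shares. Their CK log2 fold changes ranged from -0.06 to 0.05 around a median of 0.02. Snhg8 stood at 88.4 ± 2.89 CPM in WT and 90.7 ± 1.01 in CK, Snhg5 at 68.99 ± 2.71 and 66.7 ± 5.38, and Dancr at 56.6 ± 3.59 and 54.2 ± 2.27 (SD, n = 4 and 5). By annotation, 15 lncRNA genes with a promoter peak contained a snoRNA gene on the same strand, and edgeR and DESeq2 called none of their 15 peaks in CK, with 1 at an unadjusted p below 0.05, against 6.84% of all peaks called.

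Hosts of miRNAs included several of the gained promoters. Of 22 listed genes, 9 had 16 promoter peaks, of which 4 gained and none lost in CK (median 0.13), against 3.54% gained over all peaks. In K 2 gained, against 0.647%, and none was called in C, against 0.160%, where 3 had an unadjusted p below 0.05 and DESeq2 called none. The 4 were those of Mir124a-1hg and C130071C03Rik. By annotation, 33 genes with 45 promoter peaks contained a miRNA gene on the same strand, and 8 peaks gained in CK and none lost, against 3.54% gained over all peaks. DESeq2 called 7, and 15 had an unadjusted p below 0.05, with a median of 0.10. The gained share in CK was 5.03% over all lncRNA promoters and 17.4% over the CpG-rich ones. Whether miRNA hosts differ from other CpG-rich lncRNA promoters was not tested. Of the 8 gained peaks 3 were at C130071C03Rik, so they are not 8 separate hosts. The further ones were AL805899.1, which contains Mir31 (0.69 ± 0.17, adjusted p = 0.00781), Smkr-ps (0.37 ± 0.08, 0.00263), Gm36283 (0.66 ± 0.17, 0.00908) and Gm21814, of which the last 3 contain an annotated miRNA gene named only by a Gm number.

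The miRNA hosts best known from B cells were not called. Mir155hg at its start (chr16:84702510-84705519) had 44.5 ± 1.25 CPM for WT, 45.4 ± 2.08 for C, 46.4 ± 4.11 for K and 49.1 ± 1.52 for CK (log2 fold change 0.14 ± 0.05, adjusted p = 0.0666). Mir17hg, which gives the miR-17 family, had 46.6 ± 2.12 in WT and 50.8 ± 4.402 in CK (0.12 ± 0.06, adjusted p = 0.205). Dleu2, host of the tumor-suppressive Mir15a and Mir16-1, had 176 ± 4.73 in WT and 174 ± 8.002 in CK at the start at chr14:61680678-61685333 (-0.02 ± 0.04, adjusted p = 0.768). Its peak at chr14:61619863 had CK log2 fold changes from -0.79 to -0.41 with any 1 mouse left out, and was not called. The Dleu2 peak shared with Gm27017 had 0.02 to 0.07 in the same fits and was not called either. Mir9-3hg, which carries another copy of Mir9, had 3.99 ± 0.491 and 4.75 ± 0.480 (0.25 ± 0.14, adjusted p = 0.2295).

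Among lncRNAs with a known part in immune or blood cells, 13 of 32 genes had 22 promoter peaks, and 1 gained and none lost in CK (median 0.04), which is near the shares over all peaks (3.54% gained and 3.30% lost). The gained one was a start of Lncpint, a p53-induced lncRNA (chr6:31216106-31219129), with 104 ± 8.46 CPM for WT, 104 ± 5.995 for C, 120.4 ± 6.28 for K and 121 ± 8.31 for CK (log2 fold change 0.22 ± 0.06, adjusted p = 0.008998). The Lncpint call was just under the threshold and was lost under 14 of the alternatives, among them centering in GC bins and leaving out any 1 of WT mice 2 to 4. Its other starts had log2 fold changes of -0.06 and 0.09 and were not called. Pvt1, the neighbor of Myc, had -0.05 ± 0.05 at one start and -0.31 ± 0.09 at an internal start (chr15:62177689-62178439, adjusted p = 0.0269), not called. None of the 22 was called in C or K by edgeR or DESeq2, with 1 and 5 at an unadjusted p below 0.05.

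LncRNAs listed as ubiquitous nuclear or regulatory, with 13 peaks at 8 of 24 genes, had a median of 0.04 in CK. The only call was the Lncpint peak above, against 6.84% of all peaks called. Some of these genes, such as Dleu2, Pvt1 and Pantr2, also stand on other lists given here. Malat1, a nuclear speckle RNA, had 108 ± 5.75 CPM in WT and 103 ± 9.65 in CK (-0.06 ± 0.06, adjusted p = 0.536), and Neat1, the scaffold of paraspeckles, 121 ± 8.47 and 124 ± 8.75 (0.04 ± 0.06, 0.728). Imprinted lncRNAs had peaks at 3 of 14 genes (Meg3, Kcnq1ot1 and Airn), and edgeR and DESeq2 called none in C, K or CK, with none at an unadjusted p below 0.05 and a CK median of 0.05, and 3 peaks are too few to read against 6.84% of all peaks. Kcnq1ot1 stood at 56.5 ± 2.71 CPM in WT and 55.9 ± 2.06 in CK. Developmental lncRNAs had peaks at 2 of 36 genes. Pantr2 was at 2.45 ± 0.223 and 3.38 ± 0.467 CPM (0.46 ± 0.13, adjusted p = 0.0182) and Bvht at 6.82 ± 0.359 and 7.56 ± 0.457 (0.15 ± 0.09, 0.3001), and neither tool called them in CK, with 1 at an unadjusted p below 0.05. One further gained peak belonged to Ptpmt1, whose symbol is that of a mitochondrial phosphatase gene although M21 types it as processed_transcript (22.8 ± 2.39 and 30.9 ± 2.53 CPM, 0.44 ± 0.09, adjusted p = 0.00131).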

How the data were processed

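ATAC-seq was made from splenic GC B cells of 17 mice (4 WT, 4 C, 4 K and 5 CK), 1 library per mouse, and groups were taken from the labels. The authors aligned reads to mm10 with the nf-core ATAC-seq pipeline, removed duplicates and deposited the counts of fragments in each consensus peak, unnormalized, made with featureCounts 2.0.1. A fragment over several peaks was counted in each, and strand was not used. Here all 65483 peaks with a summed count of at least 10 (none removed) were fitted over the 4 genotypes with edgeR 4.0.16 in R 4.3.3 (TMM, quasi-likelihood test, Benjamini-Hochberg over all peaks, adjusted p below 0.01). CPM values were scaled by TMM library sizes. DESeq2 1.42.0 was an alternative, with other scalings (limma 3.58.1), filters, rules and left-out mice. Labels do not exclude shared litters, and p-values measure the spread between these mice. The fit was tested on simulated data.

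Named peaks were the 8 gained and 8 lost with the lowest adjusted p in CK, the 4 each way in K, all in C, the 3 each way in CK against C and up to 3 each way in K against C, the 6 highest per kb, and listed genes. Members and lists were chosen with earlier results of these data known. Same-numbered samples were compared by the correlation of their deviations from the group means. For C and WT the 4 same-numbered pairs correlated positively, with r between 0.14 and 0.224. However, WT mouse 2 correlated slightly better with C mouse 1 (0.166) than with C mouse 2 (0.158). Each same-numbered C and WT pair also shared its Y signal status, so pairing by number and by Y status cannot be told apart.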

Additional observations from a re-analysis of the deposited data

Results flagged for a closer look

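Of 308 groups of mice over the 77 named peaks, 13 (4.22%) held a mouse set apart from the others of its group by Dixon's test, where chance gives about 1 in 20. Mice below their group were K mouse 4 at CT025659.1 (13.1 CPM, the next 15.02), CK mouse 5 at AC091309.4 (2.07 CPM), CK mouse 3 at Airn (13.4 CPM), WT mouse 1 at the Lncpint peak chr6:31086815 (24.3 CPM) and C mouse 3 at Trp53cor1 (4.70 CPM). Mice above their group were CK mouse 5 at Gm11672 (12.1 CPM), CK mouse 2 at Gm49735 (52.1 CPM), WT mouse 3 at Gm32250 (8.155 CPM) and K mouse 4 at the Mir124a-1hg peak chr14:64589701 (1.98 CPM). At the peak shared by A330023F24Rik and Gm37027, C mouse 3 stood above its group (1.72 CPM). At the Pvt1 peak chr15:62037222, WT mouse 4 (64.8 CPM) and CK mouse 5 (65.3 CPM) stood above their groups, and at the Lncpint peak chr6:31216106 K mouse 1 did (129.7 CPM).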

How the results depend on the processing

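Under all 26 alternatives run for each, the median log2 fold change of lncRNA promoters in C, K and CK moved by less than 0.0285. This limit, the SD between mice of their mean log2 CPM, exceeds each median, so a fall to 0 would also pass. Without 1 mouse the medians were -0.010 to 0.009 in C, 0.001 to 0.019 in K and 0.018 to 0.037 in CK. None of the 40 called named results reversed. Named peaks that were not called could change sign, as Gm26887 did in CK (-0.05 to 0.04 without 1 mouse). Of the alternatives, 32 of 37 kept the CK count within 1.5 times of 105, against 25 of 37 for K, 19 of 37 for C, 24 of 37 for CK against C and 27 of 37 for K against C. DESeq2 called 7 in C, 37 in K, 38 in CK against C, 17 in K against C and 1 in CK against the sum. GC bins gave 13 in K and 7 in CK against C, and loess offsets 4 in K against C. An adjusted p below 0.05 gave 11 in C, 82 in K, 224 in CK, 82 in CK against C, 42 in K against C and 185 among all genotypes, and a fold change above 1.5 gave 9 in K, 46 in CK and 9 in CK against C. The Y signal as covariate gave 8 in C and 36 in CK against C, and fitting only the genotypes compared 9 in C. Chosen after seeing the data, a start inside the peak gave 14 in K, 66 in CK, 11 in CK against C and 52 among all genotypes, and leaving out windows rich in peaks called in C gave 1 in C. Leaving out 1 mouse gave 0 to 6 in C, 3 to 27 in K, 56 to 113 in CK and 3 to 24 in CK against C. It gave 0 to 1 in CK against K, 1 to 9 in K against C, 0 to 1 in CK against the sum and 51 to 90 among all genotypes. Over all peaks it gave 51 to 133 in C, 216 to 1071 in K and 2114 to 4609 in CK, against 105, 966 and 4478 with all mice. DESeq2 called 180, 1617 and 5201 of all peaks in C, K and CK, and GC bins 104, 717 and 3901. The causes were not tested.

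The replicate block gave 12 in C, where every same-numbered pair had an r of at least 0.14. Elsewhere the lowest same-numbered r lay between -0.093 and 0.006. There the block gave 54 in K, 154 in CK, 52 in CK against C, 20 in K against C and 132 among all genotypes. Replicate number 5 occurred only in CK, so CK mouse 5 added nothing to the comparisons under the block. Over all peaks the block gave 213 in C, 2146 in K and 6607 in CK. In no comparison, C against WT included, did every sample correlate best with its own number. The Pvt1 peak chr15:62177689 was called in CK with the block (-0.30) and with only the genotypes compared (-0.31). Fitting only the genotypes compared gave no value for the sum or for all genotypes, nor did the fold threshold for all genotypes. The lowest tercile of level held 20 calls in CK (5.04%), the middle 47 (11.8%) and the highest 38 (9.55%), against 6.84% of all peaks.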
